A study of Mus musculus with 8 samples.

Results

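The transcripts of 10 pluripotency factors of mouse embryonic stem cells (ES cells) were examined for binding by MBD5 and MBD6: Pou5f1, Sox2, Nanog, Esrrb, Klf4, Tfcp2l1, Sall4, Zfp42, Lin28a and Utf1. The genes were named by symbol and not by their peaks, although the set was chosen with earlier results of these data known. A peak belonged to a gene when its midpoint lay in the gene body on the same strand (GENCODE release M21, mm10). By this rule 33 of the 29555 peaks in the 4 peak lists belonged to the 10 genes, which are 10 of the 21951 protein-coding genes of the annotation. Peaks fell in 8 of the 10 genes. Lin28a and Utf1 had 0 peaks on either strand.

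MBD5 and MBD6 carry a methyl-CpG-binding domain and are known as partners of the PR-DUB complex, which removes ubiquitin from histone H2A. RNA bound by each protein was recovered by UV crosslinking, immunoprecipitation and sequencing (CLIP-seq). The cells were ES cells with wild-type endogenous genes, grown with serum, LIF, CHIR99021 and PD0325901, and they stably overexpressed the human coding sequence of MBD5 or MBD6 with a 3XFlag tag under hygromycin selection. The samples were 2 Flag-MBD5 CLIP libraries, 2 Flag-MBD6 CLIP libraries and 2 digested inputs for each protein. The 4 inputs were not analysed here, and no library of untagged cells was analysed, so a peak is a local excess of reads as called by the authors. The labels give a Flag antibody for the sample but an MBD6 antibody in the extraction protocol, and the study's methods give Flag. They also give both embryos as the tissue and mouse ES cells as the cell type. Nothing in the labels says that the libraries of a protein came from separate cell lines or cultures.

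Mouse ES cells keep their identity through a network of transcription factors. Pou5f1 (OCT4), Sox2 and Nanog are its core, and Esrrb, Klf4 and Tfcp2l1 hold the naive state that LIF and inhibition of MEK and GSK3 maintain. Sall4 is a zinc-finger partner of OCT4, Zfp42 (REX1) is a zinc-finger marker of the naive state, Lin28a is an RNA-binding protein that blocks maturation of let-7 microRNAs, and Utf1 is a chromatin-associated factor. The data below concern the RNA of these genes only.

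The libraries held 5362 and 5388 peaks for Flag-MBD5 against 9218 and 9587 for Flag-MBD6. The number of reads at each summit was solved from the deposited fold enrichment and p-value, and gave an estimated 478790 and 500143 reads for Flag-MBD5 against 983918 and 1111742 for Flag-MBD6, a ratio of the protein means of 2.14. The lowest summits held 5 to 6 reads, and the median summit held 16 reads in each Flag-MBD5 library and 20 and 21 reads in the Flag-MBD6 libraries. At strong sites the 2 libraries of each protein were closer than sampling noise, with a chi-square per degree of freedom of 0.496 for Flag-MBD5 and 0.414 for Flag-MBD6, against 3.74 to 4.39 between proteins. Each protein was therefore counted as 1 sample with the mean of its libraries, no test over libraries was made, and all intervals cover counting error only. Values are given as reads at the summit, as summit reads per 1000000 estimated reads (rpm), and as fold enrichment over the local background. For the fold, 1 is added to both the summit reads and the local rate. A site with the same rpm and the same relative background therefore has a higher fold in a deeper library. Summit reads follow from how much of a transcript the cells held as well as from how often it was bound, and these cannot be told apart here. For the same reason fewer cells with a transcript and less RNA per cell cannot be told apart.

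Peaks that overlapped on the same strand in any of the 4 libraries were merged into sites, and the 33 peaks formed 14 sites. Of these, 3 sites had a peak in all 4 libraries, 2 in 3 libraries, 4 in 2 libraries and 5 in 1 library. The 7 sites below were found in at least 2 libraries and carry the main result of their gene, so their RNA sequence is shown at the 5′ end of the peak in the library with the most reads at the site. Each line gives the spliced transcript 5′ to 3′, as DNA letters from the GENCODE M21 transcripts. The 20 bases in capitals are the first bases of the peak, or the first exonic bases where the peak began in an intron. The 10 bases in lower case precede them in the spliced transcript.
Zfp42 site 2 (chr8:43295833-43296485, minus strand, exon 5): ggcattgttcAAGAAGGAAGCAGCTAAGAC
Tfcp2l1 site 3 (chr1:118659005-118659203, plus strand, exon 7): ggtgttcaagCCCAAGGGAGCTGATCGGAA
Sox2 site 1 (chr3:34650507-34650893, plus strand, exon 1): ggcggcggcgACCGGCGGCAACCAGAAGAA
Nanog site 1 (chr6:122711536-122711935, plus strand, exon 2): acagaggctgCCTCTCCTCGCCCTTCCTCT
Pou5f1 site 1 (chr17:35510032-35510217, plus strand, exon 4): ttgagaaccgTGTGAGGTGGAGTCTGGAGA
Sall4 site 1 (chr2:168754894-168755093, minus strand, exon 2): tgtggccgggCCTTCTCCACCAAAGGCAAC
Esrrb site 2 (chr12:86519533-86519768, plus strand, exon 7): cgaggctctgTTCCTCCTCCATCTAGCTGG

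At 6 of these 7 sites the last lower-case base was G, the base after which RNase T1 cuts, and Zfp42 site 2, with C, was the exception. Over all 14 sites 10 had G there. At Tfcp2l1 site 3 and Nanog site 1 the capitals open an exon, so the lower-case bases end the exon before. The genomic base before those peaks was not looked at. Among the 30 member peaks whose 5′ end could be placed in an exon 73.3% had G, against 75.3% of all 27536 such peaks. Over the first 30 bases C made up 27.7% in the member peaks and 20.9% in all peaks, and A made up 32.9% and 37.5%. The CpG dinucleotide, which the domain of the protein family is named for, occurred 1.07 times per window in member peaks and 0.945 times in all peaks. These windows overlap between libraries and are given as a description. For 13 of the 14 sites no transcript of another gene matched the window within 3 mismatches. The window of Sall4 site 1 matched its paralog Sall3 within 2 mismatches, so its assignment is less certain. The search covered annotated transcripts and these first 30 bases, not the genome or the rest of each site. The study's alignment settings kept reads with several genomic placements, so the other sites are not shown to be unique.

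A region of a protein was a stretch with a peak in both of its libraries. By this measure 4 factors had a Flag-MBD5 region, Esrrb, Sox2, Tfcp2l1 and Zfp42, and 6 had a Flag-MBD6 region, Nanog, Pou5f1, Sall4, Sox2, Tfcp2l1 and Zfp42. The background share among all 21951 protein-coding genes was 7.8% for Flag-MBD5 and 13.8% for Flag-MBD6. Sox2, Tfcp2l1 and Zfp42 had regions of both proteins, against 7.48% of genes, and Nanog, Pou5f1 and Sall4 had a Flag-MBD6 region alone, against 6.32%. Esrrb was the 1 factor with a Flag-MBD5 region and no Flag-MBD6 region, against 0.323% of genes, although it had peaks in both Flag-MBD6 libraries. In the single libraries 5 factors had a peak in each Flag-MBD5 library, against 10.1% and 9.9% of genes, and 7 had a peak in each Flag-MBD6 library, against 16.2% and 16.5%. Counting a peak in any library, 8 of 10 factors were hit, against 19.4% of genes. These shares are over all genes, transcribed or not, and the level of each transcript is not given by the peak lists, so the difference between 8 of 10 and the background was not tested against expression. With the Flag-MBD6 lists cut to as many peaks as the smaller Flag-MBD5 list, Pou5f1 and Sall4 no longer had a Flag-MBD6 region and 4 factors did, as many as for Flag-MBD5. Over all genes the shares were then 9.47% for Flag-MBD6 and 7.79% for Flag-MBD5.

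**Figure D1:**
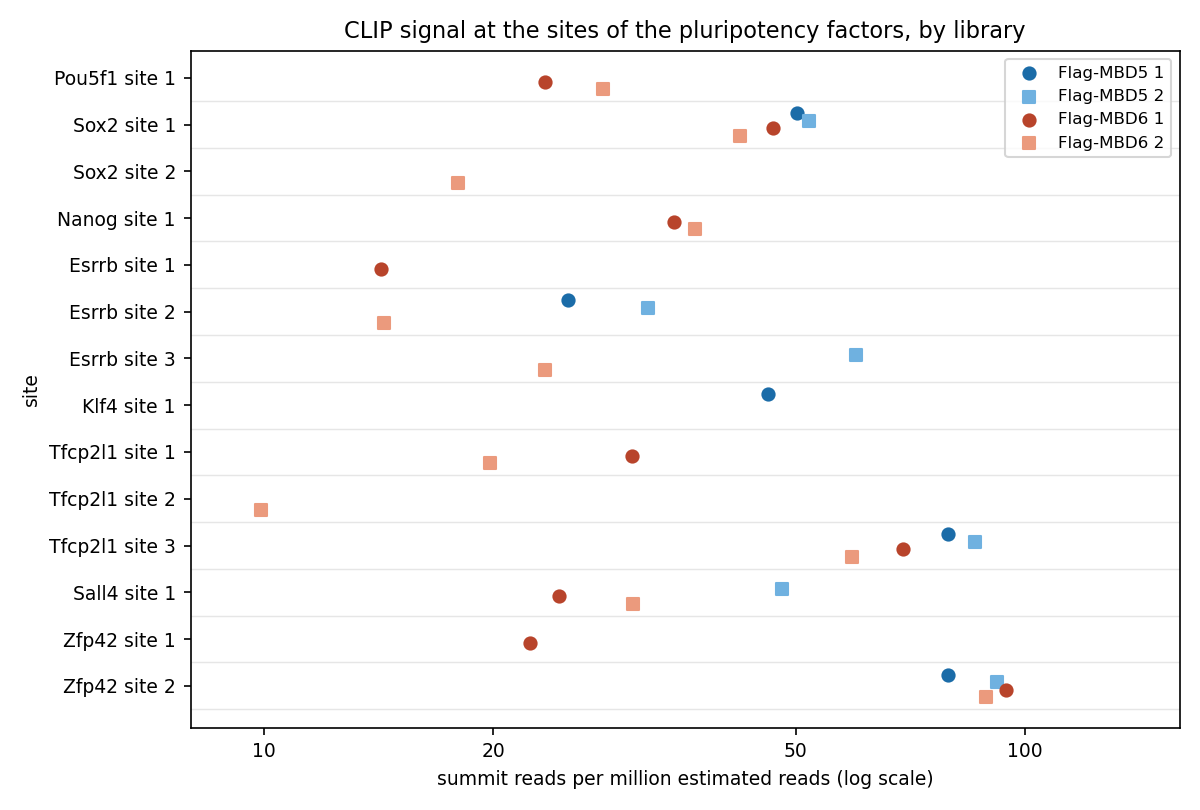
Summit reads per 1000000 estimated reads (rpm, log scale) at each of the 14 sites of the pluripotency factors, 1 point per library that called a peak there, with Flag-MBD5 in blue and Flag-MBD6 in red. The points of Zfp42 site 2 (79.4 to 94.5 rpm) and Tfcp2l1 site 3 (59.4 to 86.0 rpm) lie above those of every other site in each library, and a missing point means that the library had no peak there.

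Among the core factors, Sox2 was the 1 gene with a site in all 4 libraries. Sox2, an HMG-box partner of OCT4, is a single exon of 2057 nt (chr3:34650405-34652461) that lies within the longer non-coding gene Sox2ot on the same strand, so reads of the 2 genes cannot be told apart. Sox2 site 1 held 24 and 26 reads with Flag-MBD5 against 46 and 47 reads with Flag-MBD6. In proportion to depth these were 50.1 and 52.0 rpm for Flag-MBD5 against 46.8 and 42.3 rpm for Flag-MBD6. The Flag-MBD5 libraries lay slightly above the Flag-MBD6 libraries without overlap, a log2 difference of Flag-MBD6 over Flag-MBD5 of -0.20 with a 95% exact interval from -0.93 to 0.56. The interval held 0, so a difference was not detectable at this depth.

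The site of Sox2 was wide and stood on a high background. It spanned 387 bp and codons 31 to 160 of 319. The folds of 5.34 and 6.41 with Flag-MBD5 against 8.32 and 7.48 with Flag-MBD6 were low, although the reads were well above the median summit. In the first Flag-MBD5 library only 2.76% of peaks had a lower fold. The local background was 12.3 and 10.3 times the lowest rate of its strand for Flag-MBD5, and 7.60 and 7.85 times for Flag-MBD6. A second Sox2 site, called in the second Flag-MBD6 library alone with 20 reads and a fold of 5.10, began in the 3′ UTR, 96 nt after the stop codon (chr3:34651468-34651657).

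Nanog, the homeodomain factor of the core, had 1 site, called in both Flag-MBD6 libraries with 34 and 41 reads (34.6 and 36.9 rpm) and in no Flag-MBD5 library. Its fold was 13.0 and 14.1, above the median of those libraries, on a background of 2.77 and 2.85 times the lowest rate. The peak of the second library opened at the first base of exon 2 of 4, an exon of 266 nt, that of the first library opened 2 nt before it, and the site reached from codon 51 of 305 to codon 139. Scaled to the depth of the Flag-MBD5 libraries the same level would give 17.5 reads, a number that 55.6% of Flag-MBD5 peaks did not exceed. Such shares, here and below, take no account of the local background, and the same reads are harder to call where it is high. The difference between the proteins could not be tested, since a list gives no value where no peak was called.

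Pou5f1, the POU-domain factor of the core (chr17:35506018-35510772, with Gm19553 on the opposite strand), likewise had 1 site in the Flag-MBD6 libraries alone, with 23 and 31 reads (23.4 and 27.9 rpm). Its fold was low, 6.99 and 8.27, and it lay in exon 4 of 5, an exon of 159 nt, from codon 230 of 352. At Flag-MBD5 depth this level would give 12.5 reads, and 33.7% of Flag-MBD5 peaks had no more than that. For both Nanog and Pou5f1 the missing peaks were in the shallower libraries, and depth and protein cannot be told apart.

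The factors of the naive state gave both the strongest and the weakest sites. Tfcp2l1, a grainyhead-family factor downstream of LIF (chr1:118627945-118685168), had 3 sites in 3 coding exons, of which 1 was found in all 4 libraries. Its gene body overlaps Gm23497 on the same strand, and Gm22094 and Gm28882 on the opposite strand. Tfcp2l1 site 3 held 38 and 43 reads for Flag-MBD5 against 68 and 66 reads for Flag-MBD6, or 79.4 and 86.0 rpm against 69.1 and 59.4 rpm. The Flag-MBD5 libraries were again higher without overlap, with a log2 difference of -0.36 and an interval from -0.96 to 0.23. As for Sox2 the interval held 0.

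The folds at this site were 27.2 and 32.4 with Flag-MBD5 against 34.8 and 38.4 with Flag-MBD6, above 93.5% to 96.6% of the peaks of each library. The background was 1.08 to 1.61 times the lowest rate. In the first Flag-MBD5 library the peak began at the first base of exon 7 of 15, and in both Flag-MBD6 libraries it began 3 nt before the exon. It covered codons 220 to 256 of 479 and ran on into the next intron, with 55.8% to 56.6% of its bases exonic. The authors aligned reads without splicing and extended each to 150 bp, so intronic bases beyond the exon can come from the extension alone. Tfcp2l1 site 1 was called in the Flag-MBD6 libraries with 30 and 22 reads and a fold of 6.98 and 6.16, at exon 3 (77 nt). Tfcp2l1 site 2, at exon 6, was called in the second Flag-MBD6 library with 11 reads. The midpoints of both fell in introns, which accounts for the 3 intronic peaks among the factors.

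Esrrb, an orphan nuclear receptor (chr12:86361117-86521628), differed from the other factors in that 5 of its 6 peaks lay in the 3′ UTR. Esrrb site 2 held 12 and 16 reads for Flag-MBD5 (25.1 and 32.0 rpm) and 16 reads in the second Flag-MBD6 library (14.4 rpm). Its fold was 4.55 to 5.89, and it began 471 to 488 nt after the stop codon. Esrrb site 3 (chr12:86520266-86520431) was called in the second library of each protein alone, with 30 reads and a fold of 7.75 for Flag-MBD5 and 26 reads and a fold of 6.31 for Flag-MBD6. It began 1204 to 1207 nt after the stop codon, in the same last exon of 2805 nt. The first libraries had no peak there although the level of the second would give 28.7 and 23.0 reads in them, more than 79.3% and 60.3% of their peaks. Both sites stood on a background of 3.96 to 9.62 times the lowest rate. Esrrb site 1, in coding exon 6 of 7, had 14 reads in the first Flag-MBD6 library alone.

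Klf4, a zinc-finger factor that acts downstream of LIF (chr4:55527143-55532466, minus strand), had a single peak in the first Flag-MBD5 library. It held 22 reads (45.9 rpm) with a fold of 6.13 on a background of 10.8 times the lowest rate, in coding exon 3 of 5 at codons 344 to 371 of 483. The same level would give 23.0 reads in the second Flag-MBD5 library and 45.2 and 51.1 reads in the Flag-MBD6 libraries, where no peak was called. Klf4 was the 1 factor with no peak in either Flag-MBD6 library among the 8 with a peak, and with 1 library behind it no difference between the proteins can be read from it.

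Zfp42, a zinc-finger gene related to Yy1 whose coding sequence sits in its last exon (chr8:43295063-43306980, minus strand), had the highest summit reads of the factors in both Flag-MBD6 libraries. Zfp42 site 2 held 38 and 46 reads for Flag-MBD5 against 93 and 99 reads for Flag-MBD6, or 79.4 and 92.0 rpm against 94.5 and 89.0 rpm. The ranges of the proteins overlapped, with a log2 difference of 0.10 and an interval from -0.44 to 0.65. The folds were 17.9 and 29.6 with Flag-MBD5 against 40.1 and 40.9 with Flag-MBD6, on a background of 4.65, 2.21, 2.57 and 2.44 times the lowest rate.

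The site of Zfp42 was also the 1 site at a start codon. In the last exon of 1474 nt it began 20 nt before the start codon in the second Flag-MBD5 and first Flag-MBD6 libraries, 23 nt before it in the second Flag-MBD6 library and at codon 2 in the first Flag-MBD5 library. A second peak followed 89 bases further along the coding sequence, with 18 reads in the second Flag-MBD5 library and 27 in the first Flag-MBD6 library, and the second Flag-MBD6 library had a single peak of 653 bp over both. Zfp42 site 1, with 22 reads in the first Flag-MBD6 library alone, lay in the 5′ UTR in exon 2 of 5, 333 nt before the start codon.

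Sall4 (chr2:168748332-168767943, minus strand, with Gm14261 on the opposite strand) had 1 site, in its large coding exon 2 of 2367 nt, at codons 609 to 675 of 1067. It held 24 reads in the second Flag-MBD5 library (48.0 rpm) and 24 and 34 reads in the Flag-MBD6 libraries (24.4 and 30.6 rpm), with a fold of 7.23, 6.03 and 9.48. The first Flag-MBD5 library had no peak, at an expected 23.0 reads. Sall4 thus had a Flag-MBD6 region and no Flag-MBD5 region, while the rpm of the 1 Flag-MBD5 peak was above both Flag-MBD6 values.

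**Figure D2:**
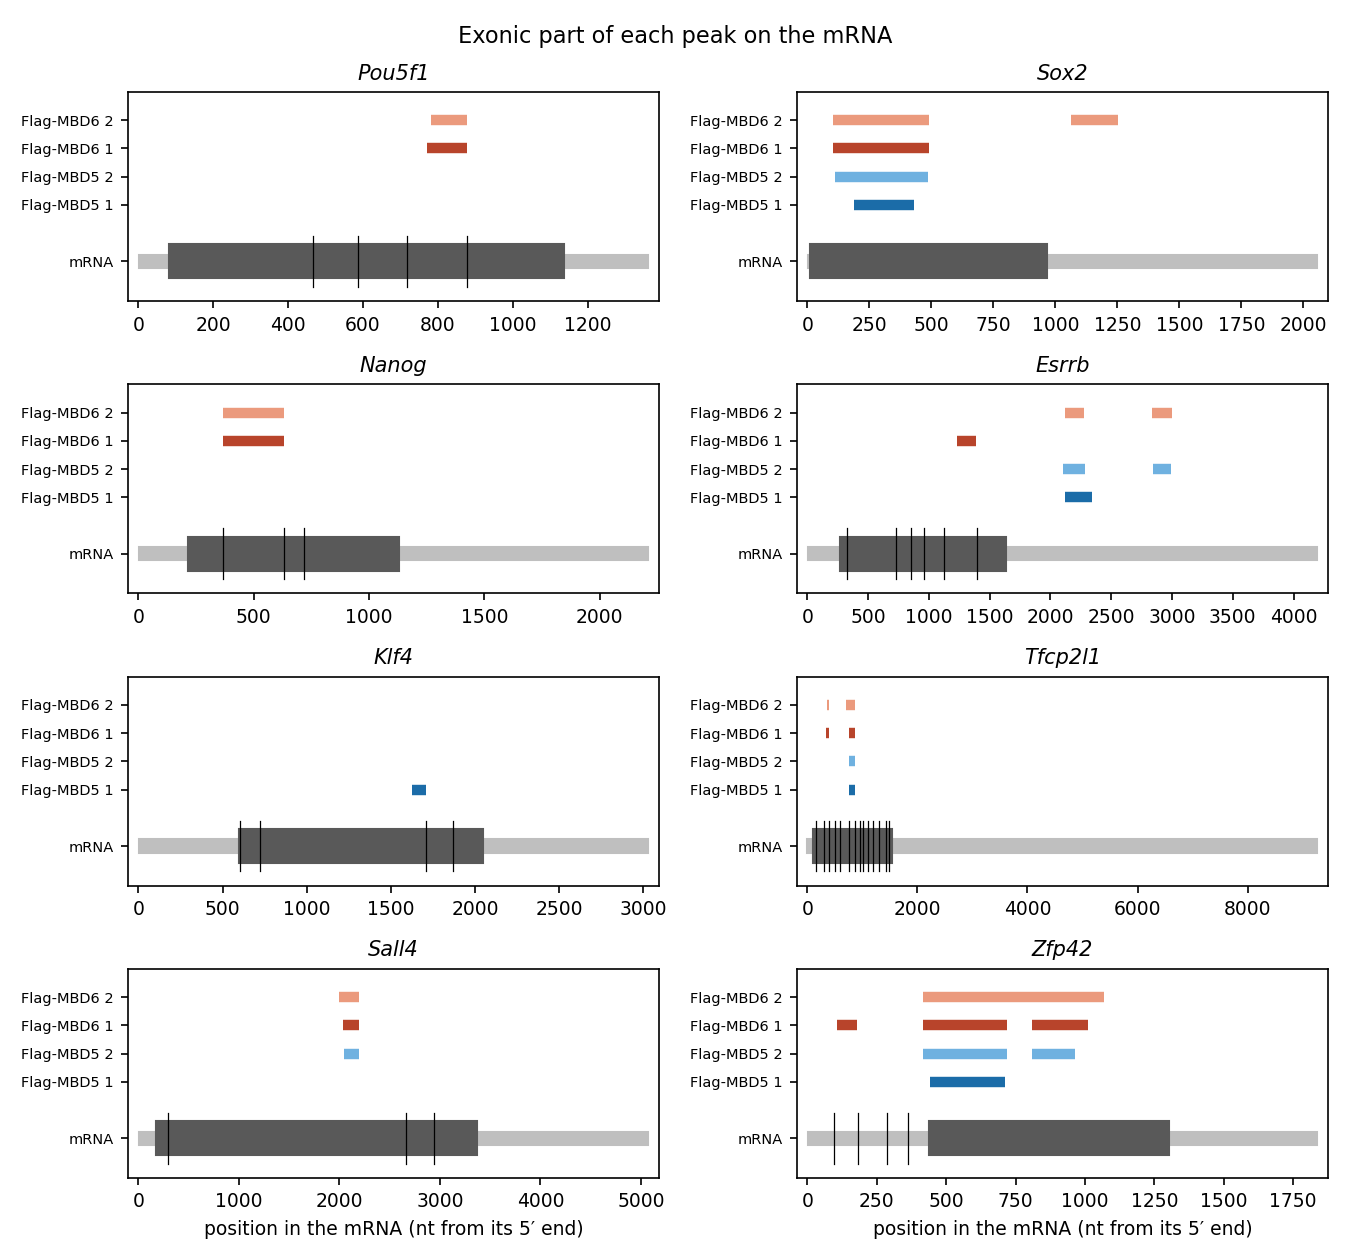
Exonic part of every peak along the spliced transcript of each factor with a peak (nt from the transcript start), 1 row per library, above a bar of the transcript with the coding sequence as a dark box and exon borders as vertical lines. Neighbouring peaks that touch after the introns are removed, such as Tfcp2l1 sites 2 and 3 in the second Flag-MBD6 library, appear as 1 bar, and the Esrrb peaks sit mainly in the 3′ UTR.

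Lin28a (chr4:134003330-134018841, minus strand, with Gm13061 on the opposite strand) and Utf1 (chr7:139943789-139945112) were without a peak in any library. The lists hold only peaks past the q threshold of 0.01, so this gives no upper limit on their reads. Utf1 was the shortest of the 10 genes at 1324 bp and Esrrb the longest at 160512 bp.

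In order of level, the strongest sites for Flag-MBD6 were those of Zfp42 at 91.8 rpm (95% Poisson interval of the mean reads 74.2 to 112), Tfcp2l1 at 64.2 rpm (49.6 to 81.2), Sox2 at 44.5 rpm (32.5 to 59.1), Nanog at 35.7 rpm (25.3 to 49.2), Sall4 at 27.5 rpm (18.5 to 39.7) and Pou5f1 at 25.6 rpm (17.0 to 37.5). These are the sites called in both libraries. The values of the 2 libraries did not overlap between Zfp42, Tfcp2l1, Sox2 and Nanog, and those of Sall4 and Pou5f1 overlapped. The intervals of neighbours overlapped, which does not show that they were alike, and the interval of Zfp42 lay above that of Sox2 and of all that followed. For Flag-MBD5 the order of the sites called in both libraries was Zfp42 at 85.7 rpm (61.8 to 116), Tfcp2l1 at 82.7 rpm (59.2 to 112), Sox2 at 51.1 rpm (33.1 to 75.4) and Esrrb site 2 at 28.5 rpm (15.6 to 48.0). The libraries of Zfp42 and Tfcp2l1 overlapped there, and both intervals lay above that of Esrrb site 2. Sites called in 1 Flag-MBD5 library stand outside this order, namely Esrrb site 3 at 59.98 rpm, Sall4 at 48.0 rpm and Klf4 at 45.9 rpm, all above Esrrb site 2. These are reads at 1 point of a transcript and not a level per length.

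At the 3 sites with a peak in all 4 libraries, the log2 differences of -0.36, -0.20 and 0.10 sit beside a median of -0.34 over all 3566 such sites, with quartiles of -0.69 and 0.05. None of the 3 passed a 2-fold difference, which 9.96% of all sites did toward Flag-MBD5 and 0.841% toward Flag-MBD6. Of all sites, 52.2% had a higher value than Tfcp2l1, 40.6% than Sox2 and 22.4% than Zfp42. The sign for Sox2 and Tfcp2l1 depended on the scale: after centring on the median of all sites Sox2 stood at 0.03, Tfcp2l1 at -0.14 and Zfp42 at 0.33, and by deposited fold enrichment all 3 were higher in Flag-MBD6, with log2 differences of 0.30, 0.43 and 0.77 for Tfcp2l1, Sox2 and Zfp42. No direction between the proteins can therefore be given for Sox2 and Tfcp2l1. Zfp42 was higher in Flag-MBD6 on all 3 scales, although its interval by rpm held 0 and its difference by rpm was just under 0 without the first Flag-MBD5 library. The scales are not independent. Centring moved all 3 sites by nearly the same amount, and fold rises with depth, which was greater for Flag-MBD6. No direction is therefore given for Zfp42 either.

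**Figure D3:**
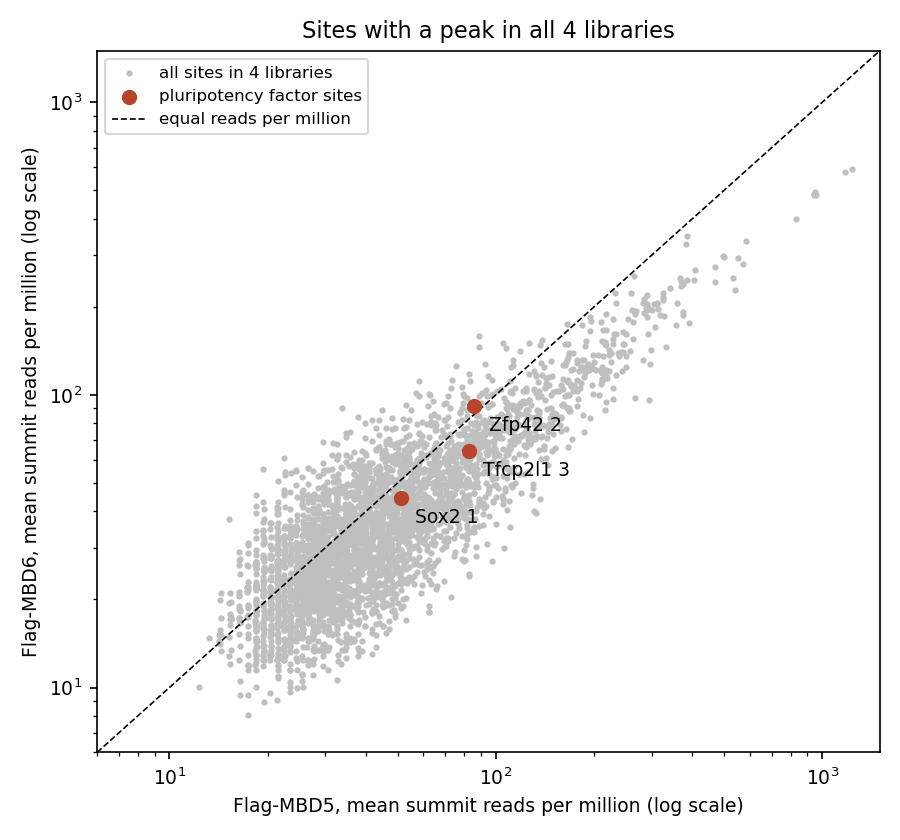
Mean summit reads per 1000000 estimated reads of Flag-MBD6 against Flag-MBD5 (log scales) at the 3566 sites found in all 4 libraries in grey, with a dashed line at equal values and the sites of Zfp42, Tfcp2l1 and Sox2 named. The 3 named sites lie within the cloud of all sites, between log2 differences of -0.36 and 0.10.

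The peaks of the factors had many reads and little enrichment for their reads. In 27 of 33 the summit reads were above the median of the library, at a median percentile of 72.4, but in 21 of 33 the fold was below it, at a median percentile of 16.4. By the definition of the fold, many reads with a low fold go with a high local background, so the background is not a separate observation. It was above the median of the library at 32 of 33 peaks and over 2 times the lowest rate at 27 (81.8%), against 25.5% of all peaks. The median was 4.04 times the lowest rate, from 1.08 at Tfcp2l1 site 3 to 12.3 at Sox2 site 1, against 1.00 over all peaks. By library the median of all peaks was 1.35 and 1.37 for Flag-MBD5 and 1.00 in each Flag-MBD6 library. Several of the member peaks come from the same gene and are not independent. The source of the background was not tested. A comparison of fold enrichment between these genes and others compares backgrounds as well as reads.

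**Figure D4:**
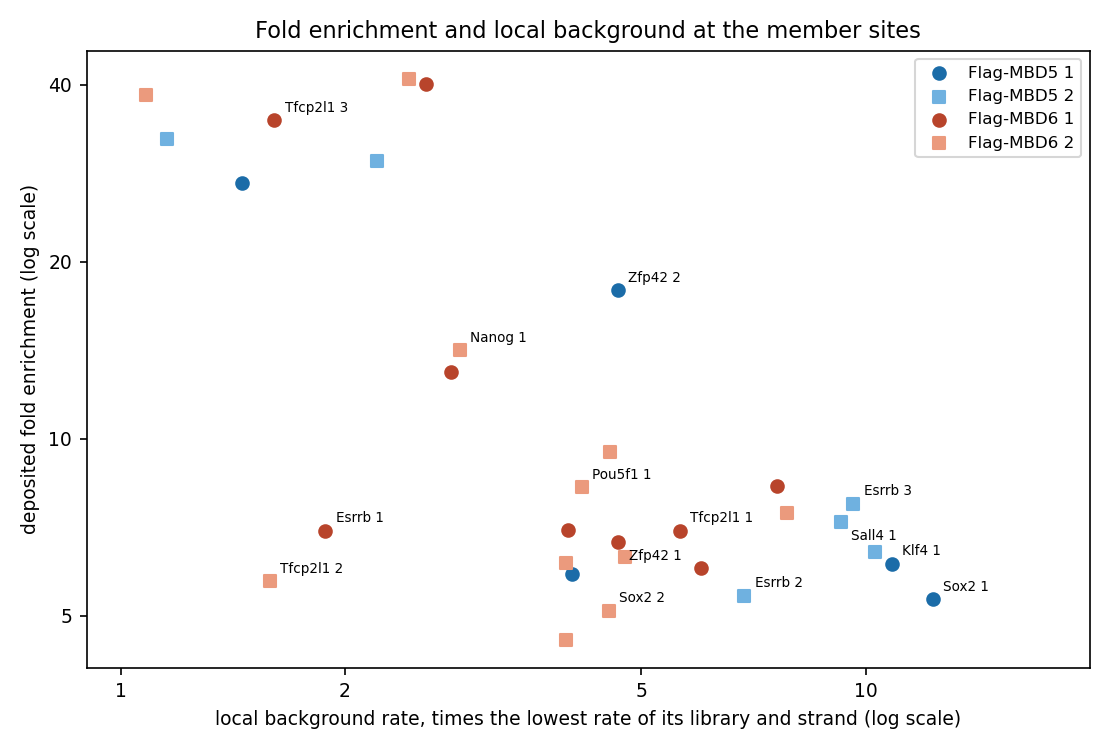
Deposited fold enrichment against the local background, as times the lowest rate of its library and strand (both log scales), for the strongest peak of each of the 14 sites in each library with a peak. Tfcp2l1 site 3 and Zfp42 site 2 hold the folds of 17.9 and more, and the sites with a background of 5 and more all have folds under 10.

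Long exons were common among these sites. Of the 30 peaks with an annotated exon at their 5′ end, 19 (63.3%) began in an exon of 1000 nt or more, against 17.5% of all peaks. At the level of sites this was 6 of 14, since Sox2, Zfp42, Sall4 and Esrrb contributed several peaks each. By midpoint 23 of the 33 peaks (69.7%, 95% Wilson interval 52.7 to 82.6) were coding, against 54.0% of all peaks. The share was 75% (9 of 12) for Flag-MBD5 and 66.7% (14 of 21) for Flag-MBD6. Another 6 (18.2%) were in the 3′ UTR, 5 of Esrrb and 1 of Sox2, against 4.03% of all peaks. The comparison with all peaks rested on the base used: 15 nt into the peak 69.7% of member peaks and 79.0% of all peaks were coding. By midpoint 9.09% of member peaks and 23.5% of all peaks were intronic, and at 15 nt 0% and 2.12%. The reason for the shift was not tested. Peaks of 1 gene are not independent, so no test was made.

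Of 39 other genes of pluripotency and self-renewal, 10 had a Flag-MBD5 region and 13 a Flag-MBD6 region, beside the background of 7.8% and 13.8% of protein-coding genes. A peak in some library was found in 22, against 19.4% of protein-coding genes. The background shares are over all genes, transcribed or not. The 6 listed genes with the highest mean fold are described here, each by its strongest peak in each library. For a gene with several peaks the libraries may show different sites. L1td1, an RNA-binding protein derived from a LINE-1 element, had folds of 35.6 and 29.5 for Flag-MBD5 against 50.7 and 51.9 for Flag-MBD6. Jarid2, an accessory subunit of PRC2, had 33.5 and 36.6 against 44.1 and 37.3. Tet1, a 5-methylcytosine dioxygenase, had 24.8 and 30.4 against 28.1 and 41.1, and 6 to 12 peaks per library. Tbx3, a T-box factor of the naive state, had 20.9 and 19.7 against 33.7 and 33.8. Rif1, a regulator of replication timing, had 20.9 and 22.8 against 31.9 and 27.9, and Dppa4, a chromatin factor of early embryos, 13.3 and 13.4 against 23.2 and 29.1. In each library the folds of Zfp42 and Tfcp2l1 lay within the range of these 6, which were chosen for high fold. Fold rises with depth, which was greater for Flag-MBD6. By rpm Jarid2 was higher in Flag-MBD5, at 100.25 and 93.97 against 71.14 and 66.56. So were Tbx3, at 102.34 and 97.97 against 71.14 and 71.96, and Rif1, at 83.54 and 101.97 against 79.3 and 79.2. The rpm ranges of the proteins overlapped for L1td1, Tet1 and Dppa4. No interval was computed for these genes. Over all sites in all 4 libraries the median log2 difference by rpm was -0.34, that is toward Flag-MBD5. No direction between the proteins is therefore read from these folds or rpm values. Over the 22 listed genes with a peak the mean of the best folds went down to 4.54 in Ctnnb1, the beta-catenin gene, and at 7.08 in Klf5 and 6.97 in Lifr, the LIF receptor, it was close to the folds of Sox2.

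Markers of other cell types were looked up in the same way. Among all protein-coding genes 19.4% had a peak in any library, 7.8% a Flag-MBD5 region and 13.8% a Flag-MBD6 region. The lists were short and no test against these shares was made. No feeder fibroblast marker of 8, such as Col1a1 or Thy1, had a peak, nor did any of 7 primitive endoderm, 5 mesoderm or 5 trophoblast markers. Of 5 neural markers Nes alone had peaks, 3 in each Flag-MBD6 library and a region with 16 and 15 reads at the strongest summit, and of 4 markers of the primed epiblast Dnmt3b alone, with 1 peak in the first Flag-MBD6 library. Of the 12 naive ES cell markers 11 had a peak, 6 a Flag-MBD5 region and 8 a Flag-MBD6 region, although 8 of the 12 are themselves among the 10 factors.

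The genes whose strongest site was most like a factor's, by the Euclidean distance of log2 rpm over the 4 libraries among 1608 genes, differed for each of the 3 factors with a site in all 4. Suds3 and Ftsj3 were nearest to Zfp42, at distances of 0.102 and 0.185. Ptprn2 and Hdgf were nearest to Tfcp2l1, at 0.126 and 0.159. Dicer1, with the same summit reads in every library, and Nfe2l2, at 0.0931, were nearest to Sox2. The measure takes in level as well as the balance between the proteins.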

How the data were processed

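As the methods of the study state, the authors filtered, clipped and collapsed reads, removed ribosomal reads, aligned the rest to mm10 with Bowtie 1.0.0 (versions per the submitters' processing notes), split strands with SAMtools 1.16.1 and called peaks per library and strand with MACS2 (reads extended to 150 bp, q under 0.01). The control library is not named in the sources used here. The deposited score is derived from the q-value. The fold column deposited is the ratio of summit signal to local background, with the same constant added to both. The −log10 p and q are as MACS2 wrote them and the authors deposited them. Deposited start, end and summit are other columns that hold positions.

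Summit reads and local rate were solved from fold and −log10 p (relative tolerance 0.0001; checked on 3000 simulated peaks, 100% recovered). Library totals were estimated from the lowest rate per strand and the genome size of 1.3e+08 bp, are estimates, and ground rpm. Depth limits precision as given with the intervals (exact conditional, Poisson or Wilson, 95%). An overlap of 1 bp counted as shared. Exons and codons came from 1 protein-coding GENCODE M21 transcript per gene, a CCDS one where there was one, with the longest coding sequence. No count model was used, since replicates agreed within sampling noise. The named genes were all 10 factors, up to 6 other pluripotency genes by mean fold, the 2 nearest genes in pattern for the 3 factors with most reads, and any gene with a site in a list with 5 or fewer. The members and lists were chosen with earlier results of these data known. Alternatives to overlap, scaling, peak number, libraries and position are in the closing section. Python 3.11.15, numpy 2.4.6, pandas 2.3.3, scipy 1.17.1 and matplotlib 3.10.9 were used.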

Additional observations from a re-analysis of the deposited data

How the results depend on the processing

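Of 101 values recomputed outside single-library removal and the replicate block, 85 stayed within the tolerance (1.5 times for counts, 1 SD over library pairs for differences, the 95% Wilson interval for shares), 11 moved beyond it and 5 changed sign. Within it, factors with a Flag-MBD6 region went from 6 to 4 at equal numbers of peaks and 5 at a reciprocal overlap of 50%, and those with a Flag-MBD5 region from 4 to 6 under the union of libraries. With equal numbers of peaks Flag-MBD6 had 6 member peaks per library in place of 10.5, and 91.7% of its member peaks were coding in place of 66.7%. The mean log2 difference between the proteins at the member sites (-0.15) became -0.28 with a reciprocal overlap of 50% (2 sites), 0.072 after centring on all sites and 0.50 by deposited fold. Among single sites the sign turned for Sox2 (0.029 centred, 0.43 by fold) and Tfcp2l1 (0.30 by fold). Without a library, member peaks ranged from 5 to 7 (Flag-MBD5) and 10 to 11 (Flag-MBD6), factors with a region from 4 to 5 and 6 to 7 (a region then being a peak in the 1 library left, which 9.90% to 10.1% and 16.2% to 16.5% of genes had), the coding share from 71.4% to 80.0% and 54.5% to 80.0%, and the mean site difference from -0.42 to -0.081. It was -0.36 without the first Flag-MBD5 library and -0.42 without the first Flag-MBD6 library, as a site of Sall4 or Esrrb then entered. Zfp42 ranged from -0.0030, without the first Flag-MBD5 library, to 0.21. With the replicate number as a block the mean site difference was -0.15, the value without it, and the labels do not say that equal numbers pair the samples. The lists give no value where no peak was called, and the Flag-MBD5 libraries were the shallower.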
